A study of Homo sapiens with 12 samples.

Results

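Aminoacyl-tRNA synthetases join each amino acid to its transfer RNA (tRNA), the step that sets which amino acid a codon is read as. The 36 genes described here were those rows of both deposited tables whose symbol is that of a synthetase on a named list, 20 cytosolic and 16 mitochondrial (symbols ending in 2), among 26485 genes in each table. The rule itself used no measured value.

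The cells were HEK293T, a human embryonic kidney line that carries a viral large T antigen. They were transfected with polyethylenimine and a PX330-GFP plasmid that carried a single guide RNA (sgRNA, called guide here), 6T or luciferase, together with Cas9 or without it, and polyA RNA was sequenced. The 12 libraries formed 4 groups of 3 libraries, which were 6T sgRNA with Cas9, 6T sgRNA without Cas9, luciferase sgRNA with Cas9 and luciferase sgRNA without Cas9. All groups shared the transfection, the plasmid backbone and an sgRNA, and none was untransfected. The authors deposited 1 table per sgRNA, with a mean normalized read count for a condition A and a condition B. Neither table names the condition that received Cas9, and A and B may stand for different things in each, so every difference is given as condition B over condition A. The labels do not say whether the libraries of a group came from separate cultures, so p-values measure the spread between these libraries only.

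Most cytosolic synthetases have a counterpart encoded by a second nuclear gene whose product works in mitochondria. A single gene each, GARS and KARS, serves both compartments, and EPRS joins glutamyl and prolyl activities in 1 protein. EPRS, IARS, LARS, MARS, QARS, RARS, KARS and DARS are the enzymes of the multi-synthetase complex of human cells, held together by the scaffold proteins AIMP1, AIMP2 and EEF1E1. Shortage of amino acids or stress of the endoplasmic reticulum raises translation of the transcription factor ATF4, which with C/EBP partners binds C/EBP-ATF response elements in the promoters of many amino acid genes, several cytosolic synthetases among them.

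Promoter stretches are shown because a short motif of that response element was found in some of them, and these genes are compared with the others further on. Promoters from RefSeq (GRCh38.p14), running from 250 bases before to 50 bases after the start of each gene, were matched for 30 of the 36 members through their current symbols. DARS, LARS, VARS, YARS, AARS2 and VARS2 had no entry. TGATGNAA was searched on both strands, and no other motif was searched. It was present in 6 of 16 cytosolic promoters (37.5%) and in 1 of 14 mitochondrial promoters (7.14%), against 3.62% of 35116 RefSeq promoters of the same length. Each line below runs 5′ to 3′ on the strand of the gene, and the capitals mark the match. In AARS, CARS, IARS, MARS and TARS the match lay on the strand opposite to the gene, and in NARS and YARS2 on the strand of the gene. The stretches lie at chr16:70289656-70289723 (minus strand) for AARS, chr11:3057394-3057455 (minus) for CARS, chr9:92293673-92293740 (minus) for IARS, chr12:57488034-57488097 (plus) for MARS, chr18:57621807-57621852 (minus) for NARS, chr5:33440937-33440994 (plus) for TARS and chr12:32756057-32756124 (minus) for YARS2.
AARS: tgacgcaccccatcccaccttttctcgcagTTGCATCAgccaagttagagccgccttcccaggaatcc
CARS: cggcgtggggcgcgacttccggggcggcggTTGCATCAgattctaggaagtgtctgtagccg
IARS: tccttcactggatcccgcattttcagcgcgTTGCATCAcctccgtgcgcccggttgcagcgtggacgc
MARS: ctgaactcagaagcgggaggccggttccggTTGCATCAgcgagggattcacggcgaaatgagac
NARS: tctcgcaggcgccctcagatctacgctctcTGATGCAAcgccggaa
TARS: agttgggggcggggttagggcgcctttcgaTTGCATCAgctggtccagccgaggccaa
YARS2: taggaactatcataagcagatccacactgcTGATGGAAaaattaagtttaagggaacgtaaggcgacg

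The 6 cytosolic matches were the same 8 letters read on one strand or the other, and the YARS2 match differed from them at the free position. In CARS, IARS and MARS the first base of the match lay 2, 13 and 4 bases before the start, and in TARS and NARS it was base 3 and base 15 of the transcript. In AARS and YARS2 it lay 187 and 197 bases before the start. A match describes the letters and does not show that a factor binds there.

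Reads of single libraries were recovered from the deposited means, and the names B1 to B3 and A1 to A3 follow the order of library size and carry no replicate number. Reads assigned to genes ranged from 6637833 to 8298176 in condition B and from 6345953 to 8259449 in condition A with the 6T guide, and from 19403157 to 38072031 in condition B and from 5891420 to 8235304 in condition A with the luciferase guide. Depth and condition therefore went together in the luciferase table. KRT8, KRT18, VIM, CDH2 and HNRNPA1, expressed by this line, had mean normalized counts of 680.0 to 5710 in all 4 conditions. Among blood cell genes, CD3E and HBB had 0 reads in every library, and PTPRC had at most 1 read in a library. Library B2 with the 6T guide and library A1 with the luciferase guide stood apart from the rest in the synthetases, a choice of libraries made after their values were seen, and results that rest on them are also given without them.

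Per length of transcript, cytosolic synthetases stood above mitochondrial ones in every condition. Levels were compared as mean normalized reads per kilobase (kb) of the principal transcript (GENCODE release 29). The median level of the 20 cytosolic genes, averaged over the 4 deposited means, was 712.8 normalized reads per kb, with a range of 376.1 to 2034, and that of the 16 mitochondrial genes was 188.6, with a range of 108.3 to 840.4. The ratio of the cytosolic to the mitochondrial median was 4.16 in condition B and 3.96 in condition A with the 6T guide, and 3.63 in condition B and 3.74 in condition A with the luciferase guide. Deposited means carry no error, and the order of genes near each other in level was not tested.

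**Figure D1:**
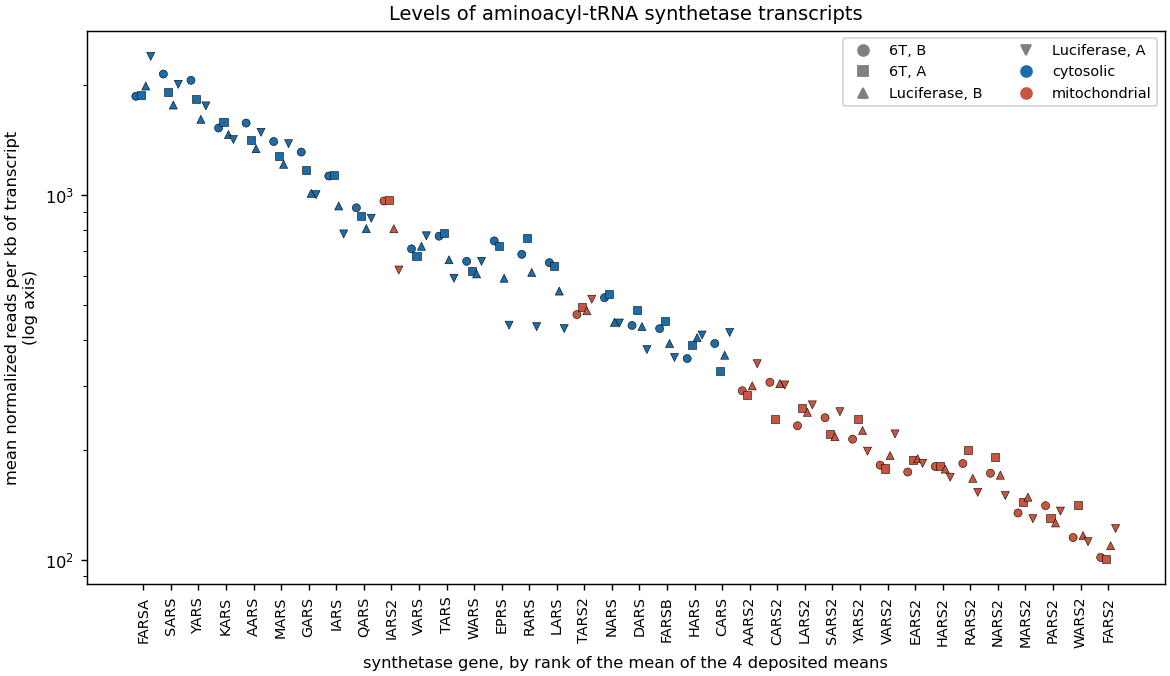
Mean normalized reads per kb of transcript (log axis) of the 36 synthetase genes, ordered by the mean of the 4 deposited means, with 1 marker per condition and sgRNA, cytosolic genes in blue and mitochondrial genes in red. Cytosolic genes fill the left side, from 2034 for FARSA, and IARS2 at rank 10 and TARS2 at rank 17 are the mitochondrial genes that lie among them.

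FARSA, the catalytic subunit of cytosolic phenylalanyl-tRNA synthetase, had the highest average level, at 2034 normalized reads per kb, followed by SARS at 1959 and YARS at 1816. FARSB, which encodes the other subunit of the same enzyme, had 408.3. The enzymes of the multi-synthetase complex ranged from KARS at 1498 to DARS at 434.1 normalized reads per kb. Transcripts of subunits that work in 1 complex were thus present at unequal levels per length. Among mitochondrial genes IARS2 was highest at 840.4, above 11 of the 20 cytosolic genes, TARS2 followed at 490.4, and FARS2, the mitochondrial phenylalanine enzyme, was lowest at 108.3.

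Pairs of a cytosolic and a mitochondrial member were formed for 14 amino acids, and phenylalanine and proline were left out of the pairs. The cytosolic transcript was higher per length in all 14 pairs in each of the 4 deposited means. In the recovered libraries 13 of 14 pairs had this order in all 12 libraries. The exception was cysteine, where CARS stood above CARS2 in 11 of 12 libraries, with ratios of 0.956 to 1.77. Isoleucine had ratios of IARS to IARS2 from 1.05 to 1.7 over the 12 libraries, and threonine had ratios of TARS to TARS2 from 1.1 to 2.01. Methionine, tyrosine and serine lay at the other end of the 14 pairs. MARS was 6.73 to 15.5 times MARS2 and SARS 7.27 to 11.1 times SARS2 over the 12 libraries, and YARS at least 6.06 times YARS2 in each of them. SARS2 shares 67.4% of its exonic bases with AC011455.2 on the same strand, so its counts and the serine ratio are uncertain. Outside the pairs, FARSA averaged 2034 and FARSB 408.3 normalized reads per kb against 108.3 for FARS2. EPRS averaged 626.1 against 133.2 for PARS2. The size of the gap thus ranged widely between amino acids, and within 1 amino acid it also moved between conditions, where the ratio for methionine was 10.4 in condition B and 8.9 in condition A with the 6T guide and 8.18 in condition B and 10.7 in condition A with the luciferase guide.

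As a share of all reads, the 20 cytosolic genes together took 6156 ± 718 reads per 1000000 reads assigned to genes (CPM) in condition B and 5833 ± 155 in condition A with the 6T guide (SD, n = 3 libraries each). The values in condition B were 5516, 6932 and 6019 in B1, B2 and B3, and those in condition A were 5987, 5678 and 5835 in A1, A2 and A3, so B2 and, narrowly, B3 stood above the range of condition A and B1 stood below it. With the luciferase guide the cytosolic genes took 5398 ± 20.2 CPM in condition B and 5392 ± 319 in condition A (SD, n = 3 libraries each). The highest of these 6 libraries was A1, at 5758 CPM. Mitochondrial genes took 1249 ± 26.5 CPM in condition B and 1262 ± 28.0 in condition A with the 6T guide, and 1225 ± 20.7 in condition B and 1181 ± 55.4 in condition A with the luciferase guide (SD, n = 3 libraries each). In polyA RNA of whole cultures, a change in the share of cells that express a gene and a change in RNA per cell cannot be told apart.

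The comparison with the 6T guide asked whether expression of the synthetases differed between cells with and without Cas9. The authors' deposited table called 0 of the 36 members (adjusted p under 0.05), where 0.0416% of all 19246 tested genes were called, and every member had an adjusted p of 1. A limma fit to the recovered reads also called 0 members, as it did 0.0% of 14043 genes. Before adjustment, 1 member passed p under 0.05 in the authors' deposited table (CARS2, background 0.868%) and 1 in limma (CARS2, background 2.36%), also after a correction for GC content (background 1.87%). Without library B1, limma counted 7 members before adjustment, where 829 of 14043 genes were counted, and 0 members after it.

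By sign, 17 of the 36 members were higher in condition B with the 6T guide, against 42.2% of 14051 genes whose mean normalized count reached 10. The authors' log2 fold change (log2 FC) had a median of 0.04 over the cytosolic genes, 11 of 20 of them higher, a median of −0.04 over the mitochondrial genes, 6 of 16 of them higher, and a median of −0.03 over all genes. Member values ran from −0.30 for WARS2 to 0.33 for CARS2. Without B2, 6 of 20 cytosolic and 7 of 16 mitochondrial genes were higher in condition B, with medians of −0.02 and 0.00, both from the mean normalized reads of the remaining libraries. The limma 95% intervals of all 36 members lay within ±1 on the log2 scale, and 26 lay within ±0.5.

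**Figure D2:**
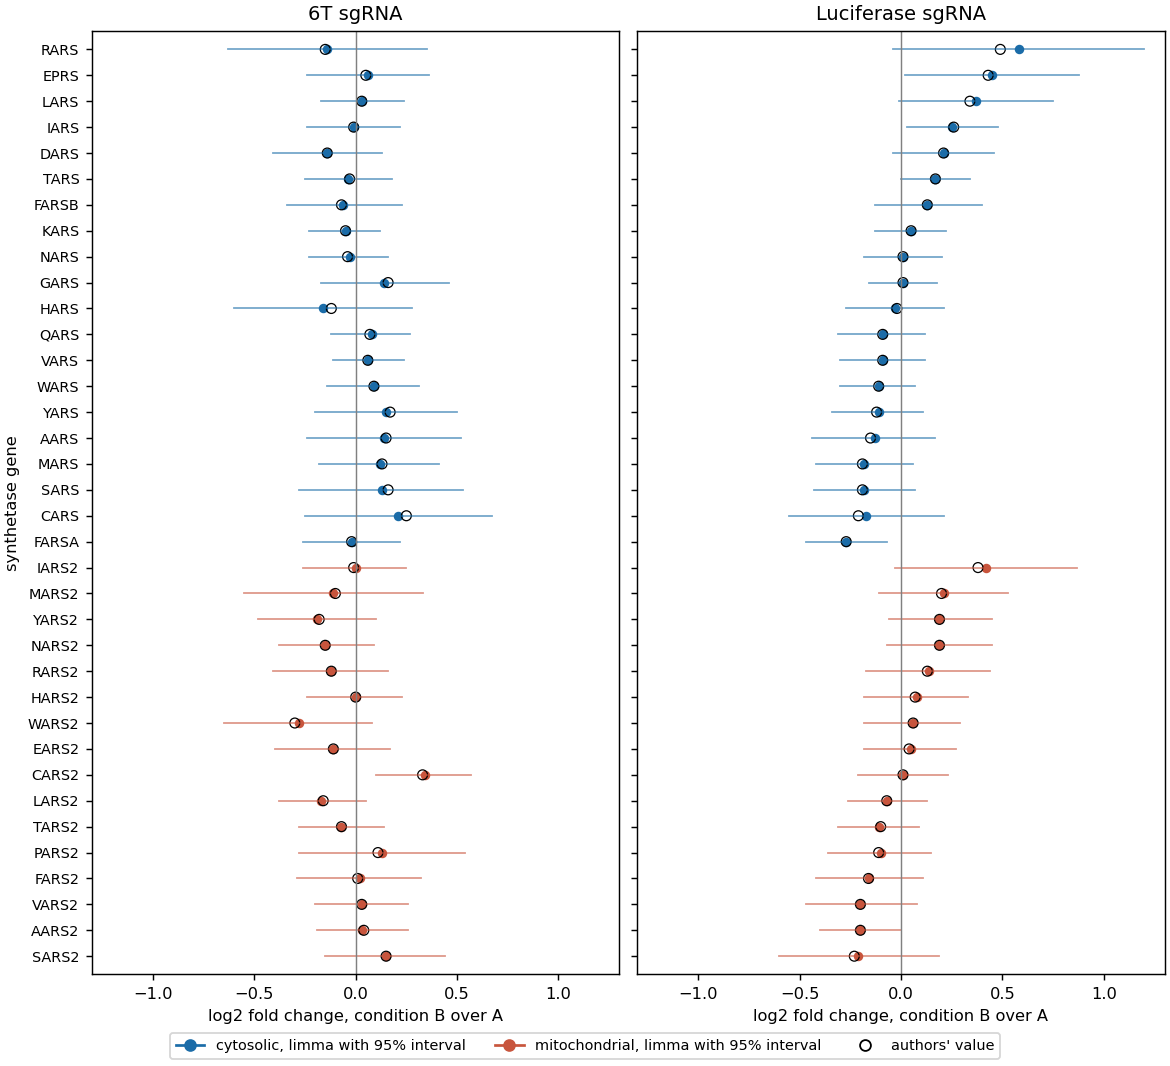
Log2 fold change of condition B over condition A for the 36 synthetase genes in the 6T table (left) and the luciferase table (right), as limma values with 95% intervals (filled, cytosolic in blue and mitochondrial in red) and as the authors' deposited values (open circles), in the order of the deposited luciferase values within each class. CARS2 at 0.33 lies farthest right in the 6T panel, and RARS at 0.49, EPRS at 0.43 and IARS2 at 0.38 lie farthest right in the luciferase panel on the deposited scale.

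CARS2, the mitochondrial cysteinyl-tRNA synthetase (chromosome 13, 110641412 to 110713603, minus strand, GRCh38), had 559.7, 592.1 and 576.7 normalized reads in condition B and 423.0, 495.5 and 453.2 in condition A with the 6T guide. All 3 libraries of condition B stood above all 3 of condition A, the only member with this order, where 4.21% of 14043 genes had it. The deposited log2 FC was 0.33 (p = 0.0446, adjusted p = 1, the authors' deposited table), and limma gave 0.34 with a standard error of 0.10 (adjusted p = 1). With the luciferase guide CARS2 had 613.2, 570.5 and 529.6 in condition B and 586.5, 541.3 and 571.0 in condition A, which overlapped, with a deposited log2 FC of 0.01.

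WARS2, the mitochondrial tryptophan enzyme (chromosome 1, 119031216 to 119140671, minus strand), had 303.3, 293.3 and 370.1 normalized reads in condition B and 343.0, 490.5 and 354.0 in condition A with the 6T guide. A2 was the highest of the 6 libraries, and B3 stood above A1 and A3, so the groups overlapped. Its deposited log2 FC was −0.30 (p = 0.0866, the authors' deposited table). YARS2, the mitochondrial tyrosine enzyme (chromosome 12, 32727490 to 32755902, minus strand), had 502.0, 386.8 and 474.0 in condition B and 467.6, 560.4 and 519.3 in condition A, where B2 was lowest and B1 and B3 lay above A1. Its deposited log2 FC was −0.18 (p = 0.244, the authors' deposited table), and limma gave −0.19, or −0.08 without B2. LARS2, the mitochondrial leucine enzyme, chosen after its values were seen, had 1142, 994.3 and 1180 in condition B and 1203, 1206 and 1304 in condition A. It was the only member with every condition B library below every condition A library, where 3.68% of genes had this order, and its limma log2 FC was −0.17 with a standard error of 0.10.

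Among cytosolic members the smallest p-values in the 6T table belonged to GARS, DARS and YARS. GARS, which charges tRNA with glycine in both compartments (chromosome 7, 30594681 to 30634033, plus strand), had 2721, 4180 and 3460 normalized reads in condition B and 3310, 2942 and 3004 in condition A. B1 was the lowest and B2 the highest of the 6 libraries. The deposited log2 FC of GARS was 0.16 (p = 0.251, the authors' deposited table), and without B2 the limma value was −0.01. YARS, the cytosolic tyrosine enzyme (chromosome 1, 32775237 to 32818153, minus strand), had 5226, 8263 and 6545 in condition B and 6310, 5183 and 6347 in condition A. B2 was again the highest library, and B1 lay below A1 and A3. Its deposited log2 FC was 0.17 (p = 0.337, the authors' deposited table), and its limma value without B2 was −0.02. DARS, the aspartate enzyme of the complex (chromosome 2, 135906677 to 135986100, minus strand), had 1130, 1011 and 967.1 in condition B and 1083, 1339 and 1014 in condition A, which overlapped, with a deposited log2 FC of −0.14 (p = 0.306, the authors' deposited table).

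WARS, the cytosolic tryptophan enzyme, which interferon induces in human cells, had 1885, 2278 and 1939 normalized reads in condition B and 1931, 1791 and 2017 in condition A with the 6T guide. The groups overlapped, and its deposited log2 FC was 0.09 (p = 0.557, the authors' deposited table). KARS, which charges tRNA with lysine in both compartments, had 3067, 2945 and 3166 in condition B and 3029, 3168 and 3337 in condition A, with a deposited log2 FC of −0.05. EPRS had 4015, 3890 and 3351 in condition B and 3533, 4371 and 3003 in condition A, with a deposited log2 FC of 0.05. All 3 genes overlapped between conditions.

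The luciferase guide addressed this question with deeper libraries in condition B. The authors' deposited table called 0 of 36 members at an adjusted p under 0.05, as it did 0.0% of 20194 tested genes, and 0 members passed p under 0.05 before adjustment (background 1.22%). limma called 0 members (smallest adjusted p = 0.455), as it did 0.0% of 14013 genes. Before adjustment it counted 5, FARSA, IARS, EPRS, TARS and AARS2, where 9.69% of all genes were counted. After the GC correction it counted 2, EPRS and YARS2 (background 8.29%). Without the correction, the member count was 2 without A1, 1 without A3, B2 or B3, and 7 without A2 or B1. Among all 14013 genes it was 816 without A1, 1353 without A3, 291 without B2, 290 without B3, 2238 without A2 and 2347 without B1.

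By sign, 19 of 36 members were higher in condition B with the luciferase guide, against 49.0% of 14087 genes. The cytosolic median of the deposited log2 FC was −0.01, with 10 of 20 genes higher, the mitochondrial median was 0.03, with 9 of 16 higher, and the median over all genes was −0.01. Member values ran from −0.27 for FARSA to 0.49 for RARS. Without A1, 12 of 20 cytosolic and 7 of 16 mitochondrial genes were higher in condition B, with medians of 0.03 and −0.01. The limma 95% intervals of 35 of 36 members lay within ±1 on the log2 scale, and that of RARS reached 1.2.

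LARS, the leucine enzyme of the complex (chromosome 5, 146113038 to 146182660, minus strand), had 2371, 2719 and 2707 normalized reads in condition B and 1503, 2524 and 2124 in condition A with the luciferase guide. EPRS (chromosome 1, 219968601 to 220046658, minus strand) had 2492, 3108 and 3296 in condition B and 1568, 2640 and 2403 in condition A. For both genes A1 was far below the other libraries, and A2 lay above B1. The deposited log2 FC was 0.34 for LARS (p = 0.0587) and 0.43 for EPRS (p = 0.0771), and the authors' deposited table lists an adjusted p of 1 for both. The limma values were 0.37 for LARS and 0.45 for EPRS with all libraries, and 0.16 for LARS and 0.23 for EPRS without A1.

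FARSA (chromosome 19, 12922479 to 12934037, minus strand) went the other way with the luciferase guide, with 3851, 3627 and 3349 normalized reads in condition B and 4628, 3968 and 4457 in condition A. All 3 libraries of condition B lay below all 3 of condition A, an order that AARS2 and FARS2 shared among members and that 9.56% of genes had. The deposited log2 FC of FARSA was −0.27 (p = 0.106, the authors' deposited table), and limma gave −0.27 with a standard error of 0.09 (adjusted p = 0.455), or −0.22 without A1. AARS2, the mitochondrial alanine enzyme (chromosome 6, 44299654 to 44313326, minus strand), had 1241, 1119 and 1105 in condition B and 1418, 1268 and 1298 in condition A. Its deposited log2 FC was −0.20 (p = 0.262, the authors' deposited table). FARS2, chosen after its values were seen, had 199.5, 183.4 and 172.2 in condition B and 201.6, 211.9 and 204.9 in condition A, with a deposited log2 FC of −0.16.

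IARS2, the mitochondrial isoleucine enzyme (chromosome 1, 220094102 to 220148041, plus strand), had 2622, 3089 and 2917 normalized reads in condition B and 1487, 2689 and 2473 in condition A with the luciferase guide. Its A1 value was the lowest and A2 lay above B1, the same layout as for LARS and EPRS. The deposited log2 FC was 0.38 (p = 0.101, the authors' deposited table), and limma gave 0.42, or 0.15 without A1. VARS2, the mitochondrial valine enzyme (chromosome 6, 30908242 to 30926459, plus strand), had 889.8, 733.5 and 736.6 in condition B and 1029, 827.4 and 847.5 in condition A, which overlapped because B1 lay above A2 and A3. Its deposited log2 FC was −0.20 (p = 0.301, the authors' deposited table), and limma gave −0.20, or −0.10 without A1.

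TARS, the cytosolic threonine enzyme, had 2725, 2877 and 2997 normalized reads in condition B and 2647, 2496 and 2506 in condition A with the luciferase guide. It and YARS2 were the 2 members with every condition B library above every condition A library, where 6.45% of genes had this order, and both were chosen after their values were seen. YARS2 had 485.3, 488.2 and 466.4 in condition B and 363.5, 457.8 and 442.5 in condition A. The limma log2 FC was 0.17 for TARS and 0.19 for YARS2, and without A1 it was 0.20 for TARS and 0.09 for YARS2.

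GARS, KARS and WARS had overlapping groups with the luciferase guide. GARS had 2663, 2629 and 2688 normalized reads in condition B and 2825, 2567 and 2528 in condition A, KARS had 3009, 3012 and 2787 in condition B and 2726, 3019 and 2788 in condition A, and WARS had 2021, 1841 and 1775 in condition B and 2135, 1942 and 2023 in condition A. For GARS and WARS the highest library was A1, and for KARS it was A2. Their deposited log2 FC was 0.01 for GARS, 0.05 for KARS and −0.11 for WARS, and the limma 95% intervals were −0.16 to 0.18 for GARS, −0.13 to 0.22 for KARS and −0.30 to 0.07 for WARS.

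Enzymes of the multi-synthetase complex and the other cytosolic enzymes had different medians with the luciferase guide. Of the 8 complex enzymes 6 were higher in condition B, with a median deposited log2 FC of 0.23, and of the other 12 cytosolic enzymes 4 were higher, with a median of −0.10. Without A1 these medians were 0.15 and 0.01. The complex genes have a lower GC content, with a median of 43.4% of transcript bases against 52.9% in the other cytosolic genes. After a correction for GC content the medians were 0.05 for complex genes and −0.06 for the others. With the 6T guide the medians were 0.01 for complex genes and 0.08 for the others.

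GC content moved with the log2 FC of the members in both tables and in opposite directions. Spearman's rho across the 36 members between GC content and the deposited log2 FC was 0.52 with the 6T guide and −0.83 with the luciferase guide, and across all genes it was 0.41 with the 6T guide and −0.70 with the luciferase guide. Genes of 1 table share its libraries and are not independent, so these are descriptions. Among members RARS (41.4% GC), LARS (41.5%), EPRS (43.2%) and IARS2 (43.8%) had the highest log2 FC with the luciferase guide, and FARSA (61.4%) and SARS2 (61.2%) had the lowest. The GC-corrected limma values were 0.34 for RARS, 0.14 for LARS, 0.28 for EPRS, 0.26 for IARS2 and −0.12 for FARSA. For CARS2 with the 6T guide, at 56.4% GC, the corrected value was 0.32. The part of depth and of GC content in these differences was not tested.

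**Figure D3:**
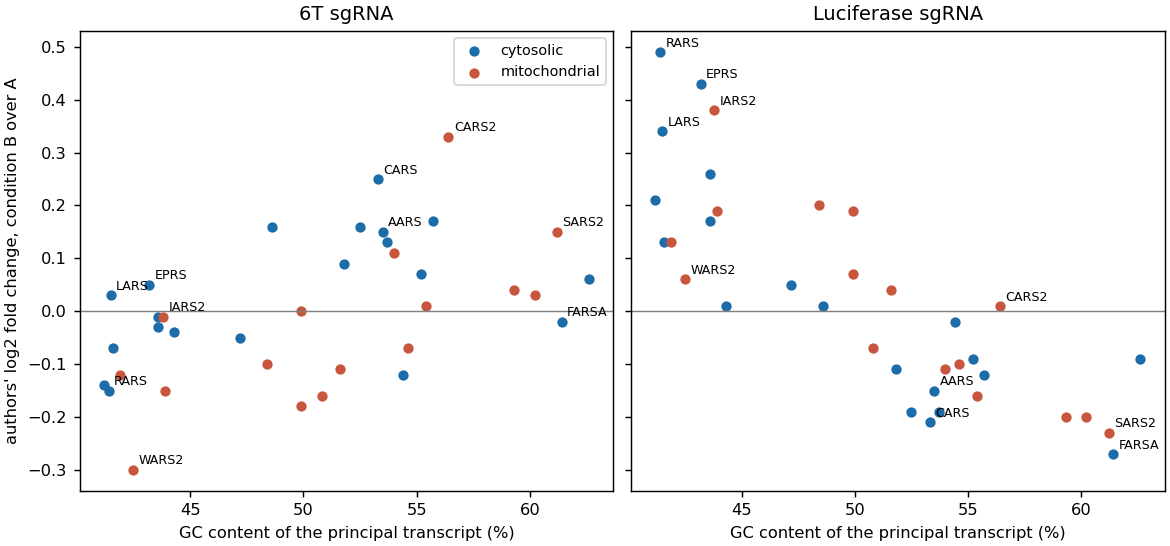
Authors' deposited log2 fold change of condition B over condition A (vertical axis) against the GC content of the principal transcript in percent (horizontal axis) for the 36 synthetase genes in the 6T table (left) and the luciferase table (right), with cytosolic genes in blue and mitochondrial genes in red. The points climb with GC content on the left (Spearman's rho 0.52) and descend on the right (−0.83), from RARS at 0.49 to FARSA at −0.27.

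Single libraries carried much of the spread among members. With the 6T guide, B2 was the highest of the 6 libraries for 9 of 20 cytosolic genes (AARS, CARS, GARS, LARS, MARS, SARS, TARS, WARS and YARS), where it was highest for 18.2% of all genes. It was the lowest library for 8 of 16 mitochondrial genes, where it was lowest for 23.7% of all genes. CARS, chosen after its values were seen, had 764.4, 1422 and 968.3 normalized reads in condition B and 949.1, 737.6 and 966.3 in condition A. Its deposited log2 FC of 0.25 was the highest of the cytosolic members with the 6T guide, and the limma value was 0.21 with all libraries and −0.03 without B2.

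With the luciferase guide, A1 was the highest library for 11 of 20 cytosolic genes, where it was highest for 32.0% of all genes, and the lowest for 7, where it was lowest for 37.5%. The genes highest in B2 of the 6T table and those highest in A1 of the luciferase table shared 7 genes, which is 7 of 9 and 7 of 11 (AARS, CARS, GARS, MARS, SARS, WARS and YARS). The share of all genes highest in both libraries is not given here, so whether this overlap is particular to the synthetases was not tested. B2 and A1 belong to different conditions by name. RARS, the arginine enzyme of the complex, chosen after its values were seen, was lowest in A1, with 1148, 1373 and 1428 normalized reads in condition B and 523.7, 1214 and 1067 in condition A. Its limma log2 FC was 0.58 with all libraries and 0.20 without A1.

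**Figure D4:**
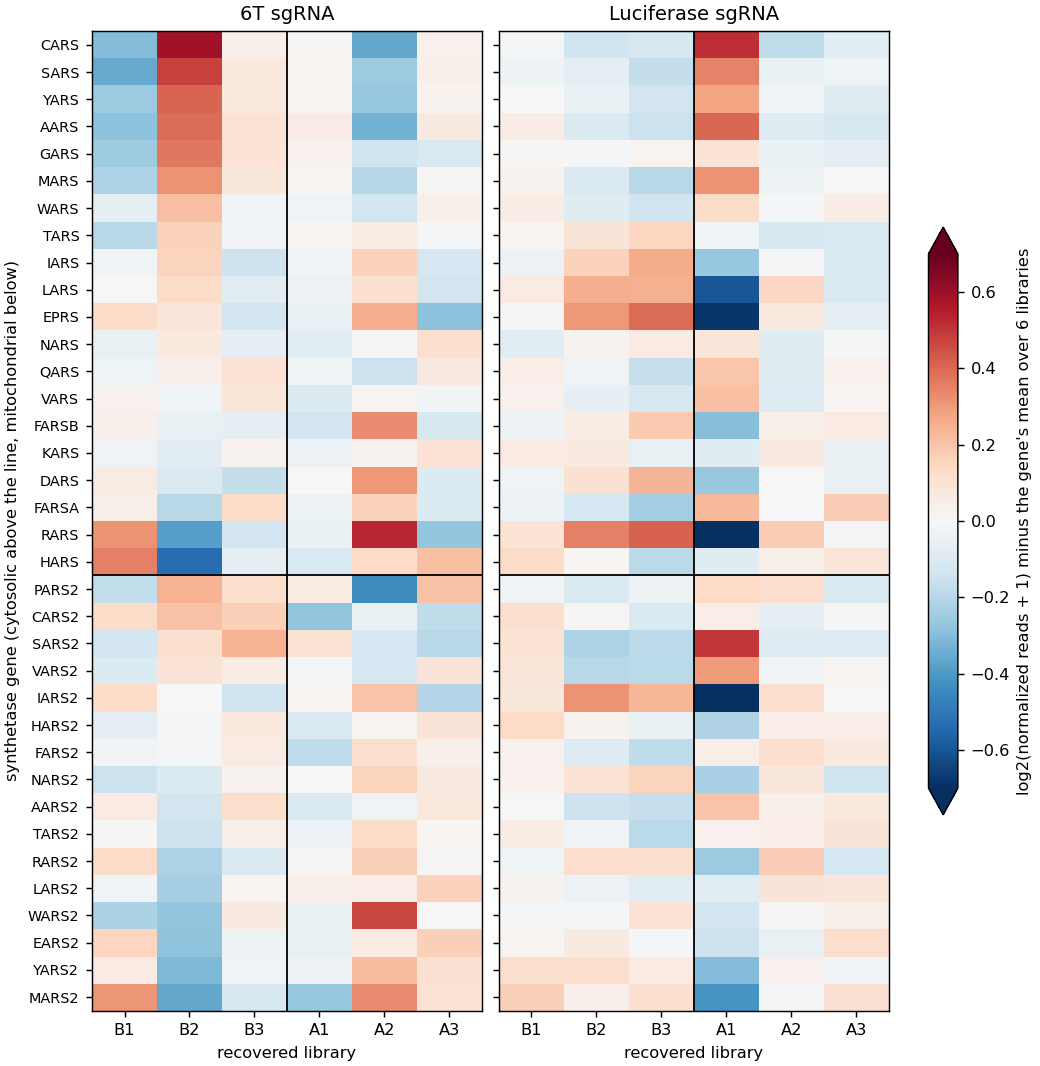
Log2(normalized reads + 1) of each synthetase gene in each recovered library minus the mean of the gene over the 6 libraries of its table, with condition B left of condition A, cytosolic genes above the line and mitochondrial genes below it. The upper cytosolic genes are high in B2 of the 6T table and again in A1 of the luciferase table, where RARS, EPRS, LARS and IARS2 are lowest, and the color scale is clipped for RARS and IARS2 in A1.

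Most amino acid response genes, a list of ATF4, its targets and its upstream sensors, were also highest in these 2 libraries. B2 was the highest library for 14 of 20 of these genes in the 6T table, where it was highest for 18.2% of all genes. A1 was the highest for 15 of the 19 with recovered reads in the luciferase table, where it was highest for 32.0% of all genes. ASNS, which makes asparagine, had 1508, 4227 and 2008 normalized reads in condition B and 2252, 1590 and 1962 in condition A with the 6T guide, and 1370, 1448 and 1603 in condition B and 1697, 1279 and 1205 in condition A with the luciferase guide. DDIT3, a stress-induced transcription factor, had 154.7, 759.7 and 563.5 in condition B and 559.9, 223.4 and 445.8 in condition A with the 6T guide. With the luciferase guide DDIT3 had 273.6, 224.5 and 273.2 in condition B and 751.7, 326.3 and 258.2 in condition A. ATF4 itself was not highest in B2, with 10370, 11880 and 12170 in condition B and 11420, 11540 and 13050 in condition A with the 6T guide. DDIT3 lies on the strand opposite to MARS, with which it shares 2.1% of the exonic bases of MARS, and whether counting used strand is not given.

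With the 6T guide 17 of the 20 amino acid response genes were higher in condition B, where 42.2% of all genes were. Their median deposited log2 FC was 0.18. With the luciferase guide 3 of 20 were higher, where 49.0% of all genes were, and their median was −0.19. In the authors' deposited tables none of the 20 reached an adjusted p under 0.05, and CEBPB in the 6T table was the only one under 0.05 before adjustment (p = 0.0388). Without B2 of the 6T table, 6 of 20 were higher, with a median of −0.09, and without A1 of the luciferase table, 7 of 20 were higher, with a median of −0.11. The part of amino acid response genes in the synthetase values was not tested.

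The 6 cytosolic genes whose promoters, printed above, hold TGATGNAA had a median deposited log2 FC of 0.06 with the 6T guide, with 3 of 6 higher in condition B, and the 10 cytosolic genes with a promoter that lacks it had a median of 0.02, with 5 of 10 higher. Without B2 the medians were −0.05, with 0 of 6 higher, and 0.00, with 5 of 10 higher. With the luciferase guide the medians were −0.07 with the motif and −0.01 without it, and without A1 they were 0.05 with the motif and 0.00 without it. Genes with the motif averaged 11.76 in B2 on the log2(normalized reads + 1) scale, against 11.30 and 11.48 in B1 and B3, and genes without it averaged 11.18 in B2, against 11.20 and 11.18 in B1 and B3. In A1, A2 and A3 the averages were 11.48, 11.37 and 11.49 with the motif and 11.14, 11.26 and 11.14 without it. In A1 of the luciferase table they were 11.492 with the motif and 10.915 without it. B2 was chosen after the synthetase values were seen. AARS, CARS, MARS and TARS are among the genes highest in B2, so the motif average there is not independent of that choice. GARS, SARS and WARS were also highest in B2 and have no match in the window searched.

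Other genes of tRNA charging were counted by direction. Of the 3 scaffold genes of the complex 2 were higher in condition B in each table, and 0 passed the authors' test. AIMP1 had 681.0, 534.8 and 512.2 normalized reads in condition B and 495.3, 874.9 and 271.9 in condition A with the 6T guide, and 315.7, 514.5 and 588.4 in condition B and 170.2, 462.4 and 331.0 in condition A with the luciferase guide, which overlapped in both tables. With the luciferase guide EEF1E1 had 41.62, 84.64 and 153.0 in condition B and 21.48, 40.21 and 35.16 in condition A. Every condition B library stood above every condition A library, B1 by little, an order that 6.45% of 14013 genes had. These counts were low, and the libraries of condition A were the shallower ones. The deposited log2 FC of EEF1E1 was 1.53 (p = 0.112, adjusted p = 1, the authors' deposited table). AIMP2 had 842.6, 803.3 and 754.0 in condition B and 869.0, 855.2 and 933.5 in condition A with the luciferase guide. Every condition B library lay below every condition A library, an order that 9.56% of 14013 genes had, and the deposited log2 FC was −0.15. With the 6T guide EEF1E1 and AIMP2 overlapped between conditions, with a deposited log2 FC of −0.16 for EEF1E1 and 0.12 for AIMP2. The 3 scaffold genes were chosen for values per library after these were seen. The 4 genes of the mitochondrial amidotransferase and formylation steps (GATB, GATC, QRSL1 and MTFMT) were all lower in condition B with the 6T guide, with a median log2 FC of −0.15, and 2 of 4 were lower with the luciferase guide. Of 7 elongation factor genes listed under the delivery of charged tRNA to the ribosome, 5 were higher in condition B with the 6T guide and 3 with the luciferase guide. Editing and hydrolysis genes had 3 of 5 higher with the 6T guide and 2 of 5 with the luciferase guide, and tRNA end processing genes and selenocysteine genes each had 2 of 3 higher with the 6T guide and 1 of 3 with the luciferase guide. None of these 25 genes passed an adjusted or unadjusted p under 0.05 in the authors' deposited tables.

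Between the tables, 28 of 36 members had log2 FC of opposite sign, where 64.4% of 13917 genes did. Higher in condition B in both were EPRS, GARS, LARS and CARS2, and lower in both were FARSA, HARS, LARS2 and TARS2. Pearson's r between the deposited log2 FC of both tables was −0.45 and Spearman's rho −0.54 across the 36 members, and r was −0.25 and rho −0.35 across all 13917 genes, given as a description because genes share libraries and because A and B may not mean the same in both tables. The difference between the sgRNAs was tested as an interaction in limma over all 12 libraries. It called 0 of 36 members (smallest adjusted p = 0.483), as it did 0.0% of 13845 genes, and 3 members passed p under 0.05 before adjustment (CARS2, NARS2 and YARS2, background 9.46%). This count was 0 without B2 or B3 of the luciferase table, 1 without A1 or A3 of it, and 8 without A2 of it. It was also 8 without B1 of the 6T table. Among all genes it was 656 without B2, 498 without B3, 576 without A1, 1713 without A3 and 2156 without A2 of the luciferase table. Without B1 of the 6T table it was 2016 genes. The difference between the sgRNAs taken from the authors' fold changes and p-values called 0 of 35 members, and 0 passed p under 0.05 before adjustment. No p-value could be derived in this way for CARS2, the member with the smallest p in the limma interaction. A p that misses the threshold does not show that the differences were alike.

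The smallest number of reads behind a member in any library was 98 for FARS2 with the 6T guide and 122 for FARS2 with the luciferase guide. The median standard error of a member in limma was 0.12 in the 6T table and 0.11 in the luciferase table. Some members share sequence with other genes. HARS and HARS2 overlap on opposite strands, over 9.5% of the exonic bases of HARS and 14.2% of those of HARS2. Of the exonic bases of SARS2, 67.4% are shared with AC011455.2 on the same strand and 15.8% with MRPS12 on the opposite strand. KARS and CARS have 3 and 2 annotated pseudogenes by symbol, so their counts are uncertain where reads could be split.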

How the data were processed

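PolyA RNA of 12 libraries was measured. According to the submitters' processing notes, which give no versions, the authors used STAR for alignment (hg38), HTSeq for gene counts and DESeq for the comparison. Whether counting used strand is not given in the sources used here. As deposited, the mean columns hold read counts divided by size factors and averaged over all libraries, over condition A or over condition B, per the file headers. The authors' fold change is the ratio of the mean in B to that in A, and the deposited log2 column is its log2. Unadjusted and adjusted p-values of the authors' test are also deposited. The 5 summary rows that name no gene were left out of every total.

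Each deposited mean is a sum of whole reads divided by 3 size factors. These were solved from low means, and the reads of each gene were then searched, with a single solution for 99.65% to 99.98% of genes above 0 and for all 36 members. The rest, 1.31% to 12.18% of a library's reads, entered library totals at their mean. The size factors of both tables lay within 0.048% of factors computed over all 12 libraries, so the tables share 1 normalization. The precision of a value is that of its reads and of the spread between 3 libraries. On log2(normalized reads + 1), limma 3.58.1 (R 4.3.3) was run with a mean-variance trend for genes with a mean of 10 or more, with Benjamini-Hochberg adjustment over all genes, and fold changes on that scale understate changes of low genes. The procedures were tested on simulated data. Lengths, GC content and positions came from GENCODE release 29 (GRCh38), and promoters from RefSeq (GRCh38.p14). Protein sequences were not used here.

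The members, gene lists and comparisons were chosen with earlier results of these data known. Values per library are given for the 3 members with the smallest deposited p in each table and class and for WARS, GARS, KARS and EPRS, and outside the members for ATF4, DDIT3 and ASNS. Other genes with values per library (LARS2, FARS2, TARS, CARS, RARS, YARS2 with the luciferase guide and the scaffold genes) were added after their values were seen. GCN1 stands in for its older symbol in the amino acid response list. Alternatives were another pseudocount (5), no filter, other scalings, a GC correction and leaving out each library. Some genes are not reported here. Because the tables hold no counts as deposited, no count model was fitted.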

Additional observations from a re-analysis of the deposited data

How the results depend on the processing

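The 0 members called in each table, the member counts by sign, the mitochondrial medians and the 0 members called for the difference between sgRNAs kept their side of the threshold or moved by less than the spread between libraries or less than 1.5 times under every alternative tried for them. The cytosolic medians, 0.04 with the 6T guide and −0.01 with the luciferase guide, did not: without B2 the 6T value was −0.02, and the luciferase value was 0.026 without A1, −0.024 without A2, −0.045 without B1 and −0.023 without B2, and the cause was not tested. The rescaled counts by sign were chosen after seeing the data. The count of members at an unadjusted p under 0.05 in limma with the luciferase guide, 5, was 0 in the authors' test and 2 with the GC correction, and the cause was not tested. Leaving out 1 library at a time gave 1 to 7 with the 6T guide and 1 to 7 with the luciferase guide for that count. The members higher in condition B numbered 14 to 22 with the 6T guide and 16 to 19 with the luciferase guide when 1 library was left out, by the sign of the limma value. By the ratio of mean normalized reads, 13 were higher with the 6T guide without B2. The cytosolic median of limma values with 1 library left out was −0.02 to 0.052 with the 6T guide and −0.045 to 0.026 with the luciferase guide, and the mitochondrial median −0.086 to −0.005 with the 6T guide and −0.01 to 0.052 with the luciferase guide. Where a condition kept 2 libraries, limma pooled the spread over genes and conditions. With 3 libraries a group and depth that differs with condition in the luciferase table, small differences were not detectable. Among all genes, limma counted 331 at an unadjusted p under 0.05 with the 6T guide (829 without B1, 162 without B3) and 1358 with the luciferase guide (2347 without B1, 290 without B3). No paired analysis was possible because the recovered libraries carry no replicate numbers.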
